A study of Mus musculus with 49 samples.

Results

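The levels of 31 genes of fatty acid oxidation were followed in mouse hepatocytes, in the cultures derived from them and in intestinal organoids. The genes were taken by name from a list of enzymes, carriers and fasting-response genes, drawn up with earlier results of these data known, and all 31 were found among the 46078 gene identifiers of the count table. The list was assembled for fatty acid oxidation and ketogenesis, but it holds none of the enzymes that make or use ketone bodies. Those were read from a separate list of 8 genes.

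All cells came from wild-type C57BL/6J mice, and the dediHep BOs described below carried a retroviral Cdx2 transgene. Hepatocytes were released by collagenase from the livers of 10-week-old mice and separated from non-parenchymal cells by centrifugation, and 3 libraries of these fresh hepatocytes (FH) were sequenced. Hepatocytes in monolayer culture with EGF at 20 ng/mL gave 3 libraries at each of 3 h, 1, 2, 4, 7 and 14 days after plating, and 2 libraries each after 7 days with 0.3 µM verteporfin, an inhibitor of the transcriptional cofactor YAP, or with its solvent DMSO. DediHeps (5 libraries) are hepatocyte-derived cells propagated by serial passage. DediHep aggregates (3 libraries) are the same cells gathered in plates of ultra-low attachment and kept in a medium for aggregates. Between aggregates and dediHeps the medium and the form thus change together and cannot be told apart. CLiPs (3 libraries) are hepatocytes turned into proliferating progenitor-like cells with small molecules. DediHeps embedded in Matrigel formed spherical organoids (dediHep SOs, 3 libraries). DediHeps transduced with Cdx2, an intestinal transcription factor, formed budding organoids (dediHep BOs, 3 libraries) after Wnt3a and CHIR99021 were withdrawn from the medium. Between these organoids Cdx2, the medium and the form change together and cannot be told apart, and between dediHep SOs and dediHeps the medium, the gel and the form do. FIPC-derived SOs (3 libraries) came from fetal intestinal cells at E13.5, and ISC-derived BOs (4 libraries) from small-intestinal crypts of 10-week-old mice. Wnt3a and CHIR99021 are used to form FIPC-derived SOs, whereas the crypts were cultured without them. Age, medium and form thus change together between these organoids. The labels do not say which libraries are separate mice or cultures, so the p-values measure the spread between libraries, which may in part be technical.

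In the liver, long-chain fatty acids are activated to acyl-CoA and carried into mitochondria as carnitine esters. There each round of oxidation runs through a dehydrogenase, a hydratase, a second dehydrogenase and a thiolase, and the electrons pass to the respiratory chain through the electron transfer flavoprotein. Very long and branched chains are first shortened in peroxisomes. During fasting the nuclear receptor PPARA, acting with RXR, and the membrane-bound factor CREB3L3 raise the transcription of many of these genes, and the acetyl-CoA produced feeds ketone body synthesis.

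Levels are counts of unique molecular identifiers per 1000000 counts (CPM), on a single TMM scale over all 49 libraries, so that a gene can be compared between groups. The counts come from the 3′ ends of transcripts and were not used to compare different genes. Differences are log2 differences with their SE from the quasi-likelihood test of edgeR. A member is said to have passed, risen or fallen where the FDR adjusted over all genes tested was under 0.1. A value in parentheses after a gene is its log2 difference with SE, and a value after a library left out is the FDR without it. Library totals ran from 861047 to 3872936 counts. A floor of 3 counts corresponds to 0.775 to 3.48 CPM before the TMM scaling, whose factors ran from 0.59 to 1.27. In FH and at 3 h the factors were low, so the floor is higher there on the scale used. For example, 3 counts of Fgf21 in FH replicate 1 are 3.54 CPM. Ehhadh, Fgf21 and Pdk4 were at or near the limit of detection in most cultures. Creb3l3 was near it in dediHep SOs, and Vnn1 at 1 and 14 days and in ISC-derived BOs. In bulk libraries such as these, fewer cells of a type and less RNA per cell cannot be told apart.

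The cell identities given by the labels were checked with marker lists. The summed level of 7 hepatocyte markers was 17428 to 21638 CPM in FH, 23133 to 23896 CPM at 3 h, 6587 to 8403 CPM at 1 day, 1398 to 1817 CPM at 14 days and 863 to 4280.3 CPM in dediHeps. It was 7336 to 11626 CPM in aggregates, 1498 to 7069.6 CPM in CLiPs, 102 to 135 CPM in dediHep SOs and 1250.2 to 1819.9 CPM in dediHep BOs. The count of a gene cannot exceed the number of possible identifiers, and the highest count of each FH and 3 h library was near that limit. Markers close to the limit would make the sums in FH and at 3 h too low, which was not examined. Tat had no count at 14 days, in dediHeps or in either kind of dediHep organoid, and Alb had none in the dediHep organoids. The 8 intestinal markers summed to 491 to 623 CPM in dediHep SOs and 2969 to 3446 CPM in dediHep BOs, with Fabp2 at 0 in the SOs. Cdx2 itself was at 87.4 ± 17.8 CPM in dediHep SOs, 240.5 ± 91.7 CPM in dediHep BOs and 46.5 ± 48.6 CPM in dediHeps, and these counts do not separate the transgene from the native gene. The intestinal markers summed to 2892 to 3667 CPM in ISC-derived BOs. Endothelial markers (5 genes) summed to 183 to 317 CPM in FH and 3.52 to 8.03 CPM at 14 days, and Kupffer cell markers (5 genes) summed to 49.6 to 159 CPM in FH. Cholangiocyte markers (5 genes) summed to 17.8 to 106 CPM in FH, with Krt19 and Epcam at 0, 693 to 732 CPM at 3 h, 363 to 477 CPM at 1 day, 1126 to 1318 CPM at 14 days, 1010.3 to 1671 CPM in dediHeps, 303 to 551 CPM in aggregates and 1425 to 2567 CPM in CLiPs. Stellate cell or fibroblast markers (6 genes) summed to 69.2 to 196 CPM in FH, 34.4 to 184 CPM at 14 days, at most 1.68 CPM in dediHeps, 4.91 to 470.0 CPM in FIPC-derived SOs and 2.51 to 7.87 CPM in ISC-derived BOs. The part of cell composition in the differences below was not tested. The libraries least like their own group were CLiP replicate 3, dediHep replicate 1 and CLiP replicate 2, with a mean correlation of 0.840, 0.854 and 0.863 with the other libraries of the group, while all libraries spanned 0.840 to 0.964.

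Together the 31 members took 0.815 ± 0.0802% (SD, n = 3) of all counts in FH and 0.786 ± 0.0173% at 3 h. Their share was 0.248 ± 0.024% at 1 day and 0.167 ± 0.021% at 14 days, 0.259 ± 0.0298% (n = 5) in dediHeps, 0.499 ± 0.0349% in aggregates and 0.298 ± 0.105% in CLiPs (n = 3 each). It was 0.147 ± 0.00763% in dediHep SOs, 0.313 ± 0.0376% in dediHep BOs, 0.182 ± 0.00666% in FIPC-derived SOs and 0.335 ± 0.0367% (n = 4) in ISC-derived BOs. The group mean was highest at 3 h for 16 members, in FH for 11, in aggregates for Crat and Fgf21, in dediHeps for Vnn1 and at 1 day for Angptl4.

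**Figure D1:**
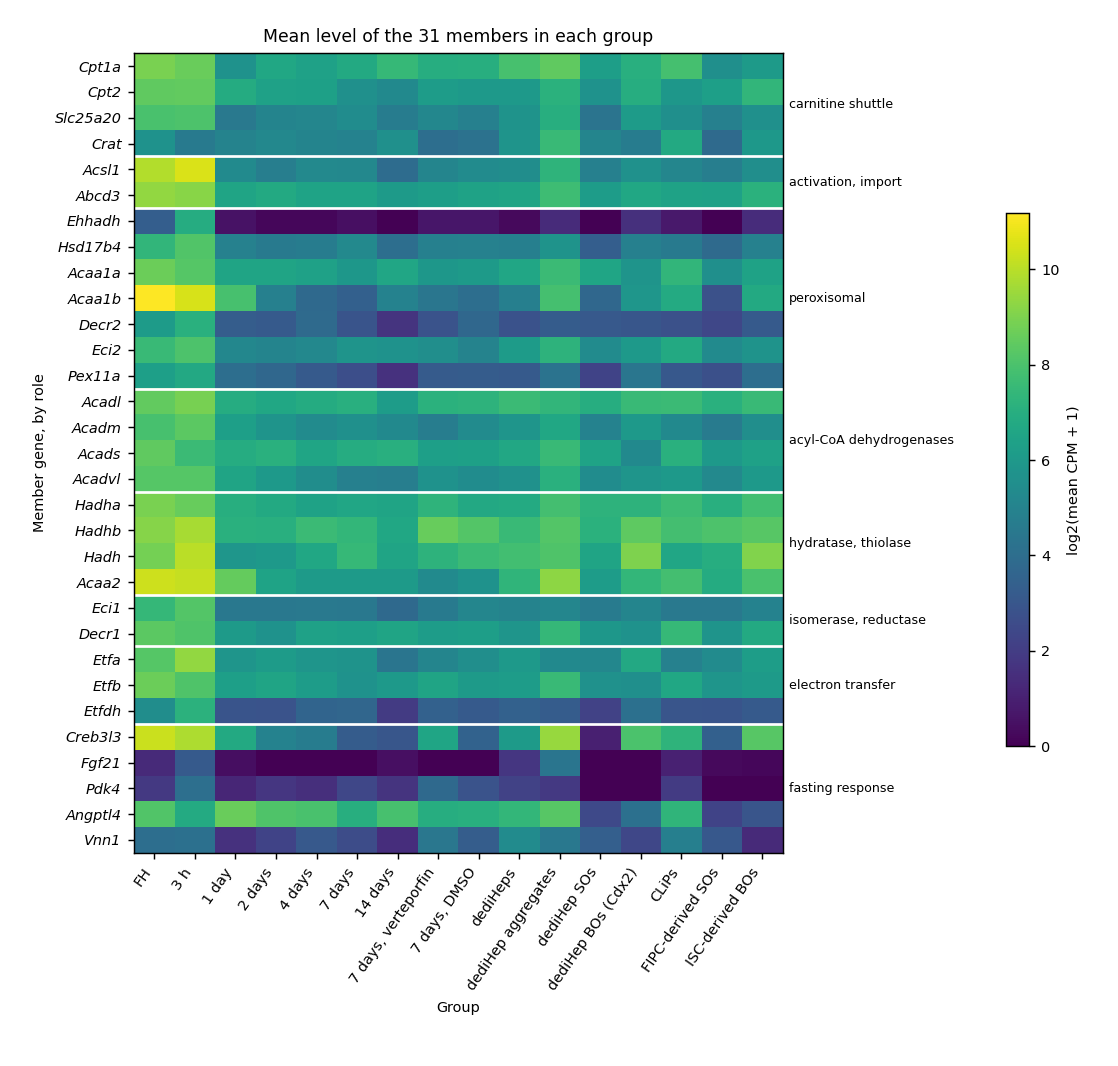
Heat map of the mean level of each member, as log2 of CPM plus 1, with the 31 members in rows ordered by role and the 16 groups in columns. Most rows are highest in FH and at 3 h, are lower from 1 day on and are intermediate in aggregates, whereas Crat, Angptl4 and Vnn1 do not follow that order.

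The time course asked how hepatocyte transcripts change after plating. At 1 day 27 of 30 members tested had fallen and 0 had risen relative to FH, where 22.2% of all genes tested fell and 17.7% rose. The members' median log2 difference was -2.51 against -0.03 over all genes. The counts were 27 lower and 0 higher at 2 days (all genes 23.1% and 21.2%), 27 and 0 at 4 days (all genes 23.5% and 23.5%), 28 and 0 at 7 days (all genes 23.5% and 25.6%), and 27 and 0 at 14 days (all genes 27.6% and 28%). The members' median stayed between -2.54 and -2.50 up to 7 days and was -3.05 at 14 days, with all-gene medians of -0.03 to 0.17. All comparisons with FH share the same 3 FH libraries. These libraries differed among themselves. FH replicate 1 was the lowest of the 3 for 14 members and the highest for another 14, for example with Etfb at 125, 610.1 and 497 CPM and Etfa, its partner subunit, at 549.9, 239 and 115 CPM.

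In the carnitine shuttle, 3 of 4 genes had fallen at 1 day and at 14 days. Cpt1a, which makes the carnitine ester at the outer mitochondrial membrane and is the rate-controlling step of long-chain oxidation, was at 373, 535 and 563 CPM in FH, 409, 428 and 341 CPM at 3 h, 60.7, 36.3 and 58.0 CPM at 1 day and 158, 245 and 127 CPM at 14 days. The 1-day libraries lay below all others of the time course, and the 14-day libraries lay between them and FH. Relative to FH its log2 difference was -3.34 ± 0.37 at 1 day (edgeR FDR = 4.56e-07) and -1.50 ± 0.35 at 14 days (edgeR FDR = 0.00114). Slc25a20, the carrier that exchanges acylcarnitine for carnitine across the inner membrane, fell from 299.7, 237 and 220.0 CPM in FH to 20.0, 26.2 and 18.8 CPM at 1 day (log2 difference -3.63 ± 0.32, edgeR FDR = 2.43e-08). Cpt2, which restores acyl-CoA in the matrix, went from 352 ± 31.2 CPM (SD, n = 3) to 116 ± 22.4 CPM at 1 day and 39.0 ± 15.2 CPM at 14 days, and fell at both times. Crat, which handles short-chain acylcarnitines, did not pass at any time point, and its FH libraries were spread over 11.8, 53.3 and 87.8 CPM.

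Both genes of acyl-CoA synthesis and peroxisomal import fell. Acsl1, the main long-chain acyl-CoA synthetase of the liver, was at 1219, 743 and 885 CPM in FH, 1454, 1508 and 1567 CPM at 3 h, 50.7, 37.8 and 29.5 CPM at 1 day and 12.1, 12.9 and 18.4 CPM at 14 days. Its log2 difference from FH was -4.68 ± 0.40 at 1 day (edgeR FDR = 1.51e-08) and -6.08 ± 0.44 at 14 days (edgeR FDR = 1.71e-10), and no library of any later time point reached the FH range. Abcd3, a transporter of fatty acyl-CoA in the peroxisomal membrane, went from 661 ± 188 CPM in FH to 91.5 ± 17.3 CPM at 1 day and 66.2 ± 10.1 CPM at 14 days (log2 difference at 1 day -2.94 ± 0.28, edgeR FDR = 7.07e-08).

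All 7 genes of peroxisomal oxidation fell at every time point from 1 day on. Acaa1b, one of the mouse peroxisomal thiolases, was at 997, 3439 and 2511 CPM in FH, 345, 215 and 170.5 CPM at 1 day, 7.39, 8.48 and 13.4 CPM at 7 days and 26.4, 33.4 and 29.8 CPM at 14 days, with log2 differences from FH of -3.35 ± 0.47 at 1 day and -6.30 ± 0.54 at 14 days (edgeR FDR = 8.13e-06 and 2.74e-09). Its close relative Acaa1a fell less, from 204, 572 and 449 CPM in FH to 102, 69.6 and 100.2 CPM at 1 day (log2 difference -2.27 ± 0.40, edgeR FDR = 1.14e-04), and the difference between the genes was not tested. The 2 transcripts share 395 stretches of 30 bases in their last 500 bases, so that 3′ reads could be assigned to either, and the counts of both are uncertain to that extent. Acaa1b (chromosome 9, 119148023 to 119157093, minus strand) and Acaa1a (119339676 to 119350299, plus strand) lie on the same chromosome in GRCm38.

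Ehhadh, the bifunctional enzyme of the PPARA-responsive peroxisomal route, had 3 counts over the 1-day libraries, which were at 0.867, 0 and 0.509 CPM against 17.7, 5.47 and 4.13 CPM in FH, a level 18.8-fold lower (95% counting interval 5.69 to 98.0). At 14 days it had no count, which is at least 16.2-fold lower than FH. FH replicate 1 held most of the FH counts, and without it the 1-day ratio was 9.81 and the 14-day bound 8.44, against a ratio of 35.7 without 1-day replicate 1 and a bound of 7.76 without 14-day replicate 1. Hsd17b4, the bifunctional enzyme of the branched-chain route, fell from 294, 99.9 and 91.9 CPM to 29.1, 36.8 and 22.4 CPM at 1 day (log2 difference -2.54 ± 0.47, edgeR FDR = 2.21e-04). Decr2 and Eci2, a reductase and an isomerase that prepare unsaturated chains, fell by log2 differences of -3.04 ± 0.45 and -2.52 ± 0.36 at 1 day. By 14 days the difference was -5.14 ± 0.55 for Decr2 and -1.91 ± 0.35 for Eci2. Pex11a, which takes part in peroxisome division, was at 96.8, 99.9 and 39.2 CPM in FH, 21.3, 15.6 and 9.16 CPM at 1 day and 2.50, 1.17 and 2.29 CPM at 14 days (log2 difference at 14 days -5.27 ± 0.62, edgeR FDR = 3.43e-07).

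The 4 mitochondrial acyl-CoA dehydrogenases, which differ in the chain length they accept, fell at each time point from 1 day on. Acadvl, for very long chains, went from 304 ± 83.2 CPM in FH to 91.9 ± 6.76 CPM at 1 day and 26.3 ± 8.84 CPM at 14 days (log2 difference -1.82 ± 0.29 and -3.53 ± 0.32, edgeR FDR = 4.42e-05 and 5.15e-09). Acadm, for medium chains, had log2 differences of -1.74 ± 0.35 and -2.66 ± 0.37, and Acadl, for long chains, of -1.66 ± 0.35 and -2.31 ± 0.36. Acads, for short chains, had the smallest differences of the 4, with -1.64 ± 0.53 and -1.41 ± 0.53. Its FH libraries were at 111, 572 and 357 CPM, and its call was lost at 1 day without FH replicate 2 (edgeR FDR = 0.162), at 2 days without FH replicate 2 (edgeR FDR = 0.243) and 2-day replicate 3 (0.146), at 7 days without FH replicate 2 (edgeR FDR = 0.164) and 7-day replicate 3 (0.114) and at 14 days without FH replicate 2 (edgeR FDR = 0.229) and 14-day replicate 2 (0.123).

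The later steps of the mitochondrial cycle were lower as well, with all 4 genes past the test at 1 day and at 14 days. Hadha and Hadhb encode the α and β subunits of the trifunctional protein, which carries out the last 3 steps on long chains. They lie head to head in GRCm38, Hadha on the minus strand at chromosome 5, 30118304 to 30155162, and Hadhb on the plus strand at 30155248 to 30184593. Hadha fell from 333, 519.8 and 614 CPM to 76.3, 137 and 169 CPM at 1 day (log2 difference -2.04 ± 0.35, edgeR FDR = 9.25e-05), and Hadhb from 710.3, 451 and 521 CPM to 153, 104 and 147 CPM (log2 difference -2.15 ± 0.32, edgeR FDR = 2.21e-05). The neighbours thus had like differences at 1 day, but within a group their levels did not always go together from library to library. In dediHep SOs Hadha was at 202, 175 and 74.0 CPM and Hadhb at 87.4, 128 and 202 CPM. Whether the neighbours are more alike than other members was not tested. Hadh, the short-chain 3-hydroxyacyl-CoA dehydrogenase, was at 701, 375 and 306 CPM in FH and 51.6, 93.3 and 28.0 CPM at 1 day (log2 difference -3.08 ± 0.46, edgeR FDR = 2.20e-05). Acaa2, the mitochondrial thiolase, was at 1298 ± 581 CPM in FH, 369 ± 32.7 CPM at 1 day and 66.5 ± 15.4 CPM at 14 days (log2 difference -1.92 ± 0.38 and -4.31 ± 0.43), and it fell again between 1 and 14 days (log2 difference -2.39 ± 0.40, edgeR FDR = 6.84e-05).

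Short stretches of the reference sequence (GRCm38.p6, from RefSeq) are given for the gap between the starts of the neighbours Hadha and Hadhb. The 100 bases before the starts of Acaa1b and Creb3l3, the genes with some of the widest ranges over the groups, are given too.
Hadha-Hadhb gap, chr5:30155163-30155247, plus strand: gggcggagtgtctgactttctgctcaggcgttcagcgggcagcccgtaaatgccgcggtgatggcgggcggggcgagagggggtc
Acaa1b, chr9:119157094-119157193, minus strand: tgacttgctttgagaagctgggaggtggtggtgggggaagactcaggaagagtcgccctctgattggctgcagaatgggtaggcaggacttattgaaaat
Creb3l3, chr10:81098875-81098974, minus strand: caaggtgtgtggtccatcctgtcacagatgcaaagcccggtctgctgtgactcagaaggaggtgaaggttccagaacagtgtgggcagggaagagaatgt
The gap between the trifunctional protein genes is 85 bases long, so a single short region lies upstream of both. PPARA with RXR is known to bind direct repeats of AGGTCA with 1 base between them. Over promoters of 250 bases before to 50 after the start, that repeat was found on neither strand in any of the 25 members with an entry in the promoter table, and in 13 of 27025 genes (0.0481%). With the fourth base of each repeat left free the numbers were 0 of 25 and 122 (0.451%). A missing match says only that these letters are not in these windows.

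The auxiliary enzymes for unsaturated chains and the electron carriers fell at 1 day without exception. Eci1, the mitochondrial enoyl-CoA isomerase, went from 249, 145 and 122 CPM to 31.7, 16.6 and 16.3 CPM (log2 difference -3.08 ± 0.42, edgeR FDR = 5.58e-06), and Decr1, the mitochondrial dienoyl-CoA reductase, from 323 ± 167 CPM to 66.7 ± 7.28 CPM (log2 difference -2.38 ± 0.38, edgeR FDR = 3.79e-05). Etfa and Etfb, the subunits of the electron transfer flavoprotein, had 1-day log2 differences of -2.52 ± 0.57 and -2.51 ± 0.45, and at 14 days of -4.00 ± 0.63 and -2.69 ± 0.45. Etfdh, which passes the electrons on to ubiquinone, was at 81.4, 21.9 and 25.8 CPM in FH and 7.81, 6.55 and 5.09 CPM at 1 day (log2 difference -2.80 ± 0.66, edgeR FDR = 0.00205). Without FH replicate 1, its call at 4 and 7 days was lost (edgeR FDR = 0.168 and 0.164), while those at 1 and 14 days were kept.

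Among the genes of the fasting response, Creb3l3 and Vnn1 had fallen at 1 and 14 days, whereas Pdk4 and Angptl4 had not passed. Creb3l3, the liver and intestinal factor that works with PPARA, was at 1027, 1331 and 1364 CPM in FH, 116, 129 and 80.4 CPM at 1 day, 20.3, 7.02 and 48.3 CPM at 4 days and 9.64, 2.35 and 9.18 CPM at 14 days. Its log2 difference from FH was -3.61 ± 0.55 at 1 day and -7.48 ± 0.68 at 14 days (edgeR FDR = 2.33e-05 and 6.58e-09). Vnn1, a pantetheinase and PPARA target, was at 17.7, 13.7 and 14.5 CPM in FH and 0.867, 3.53 and 1.53 CPM at 1 day (log2 difference -3.02 ± 0.56, edgeR FDR = 2.28e-04). Angptl4, a secreted inhibitor of lipoprotein lipase, was at 171, 229.8 and 434 CPM in FH and 356, 399 and 412 CPM at 1 day, a difference that did not pass (log2 difference 0.39 ± 0.41, edgeR FDR = 0.51). Of the time points from 1 day on, it fell at 7 days only (log2 difference -1.18 ± 0.42, edgeR FDR = 0.0262), a call lost without FH replicate 3 (0.219), 7-day replicate 2 (0.117) and 7-day replicate 3 (0.179). Fgf21, a fasting hormone, was left out of every comparison by the filter on low counts, at 3.54, 0 and 1.03 CPM in FH. Pdk4, a kinase that restrains glucose oxidation, was at 2.36, 5.47 and 0 CPM in FH and 0.867, 2.52 and 0.509 CPM at 1 day.

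**Figure D2:**
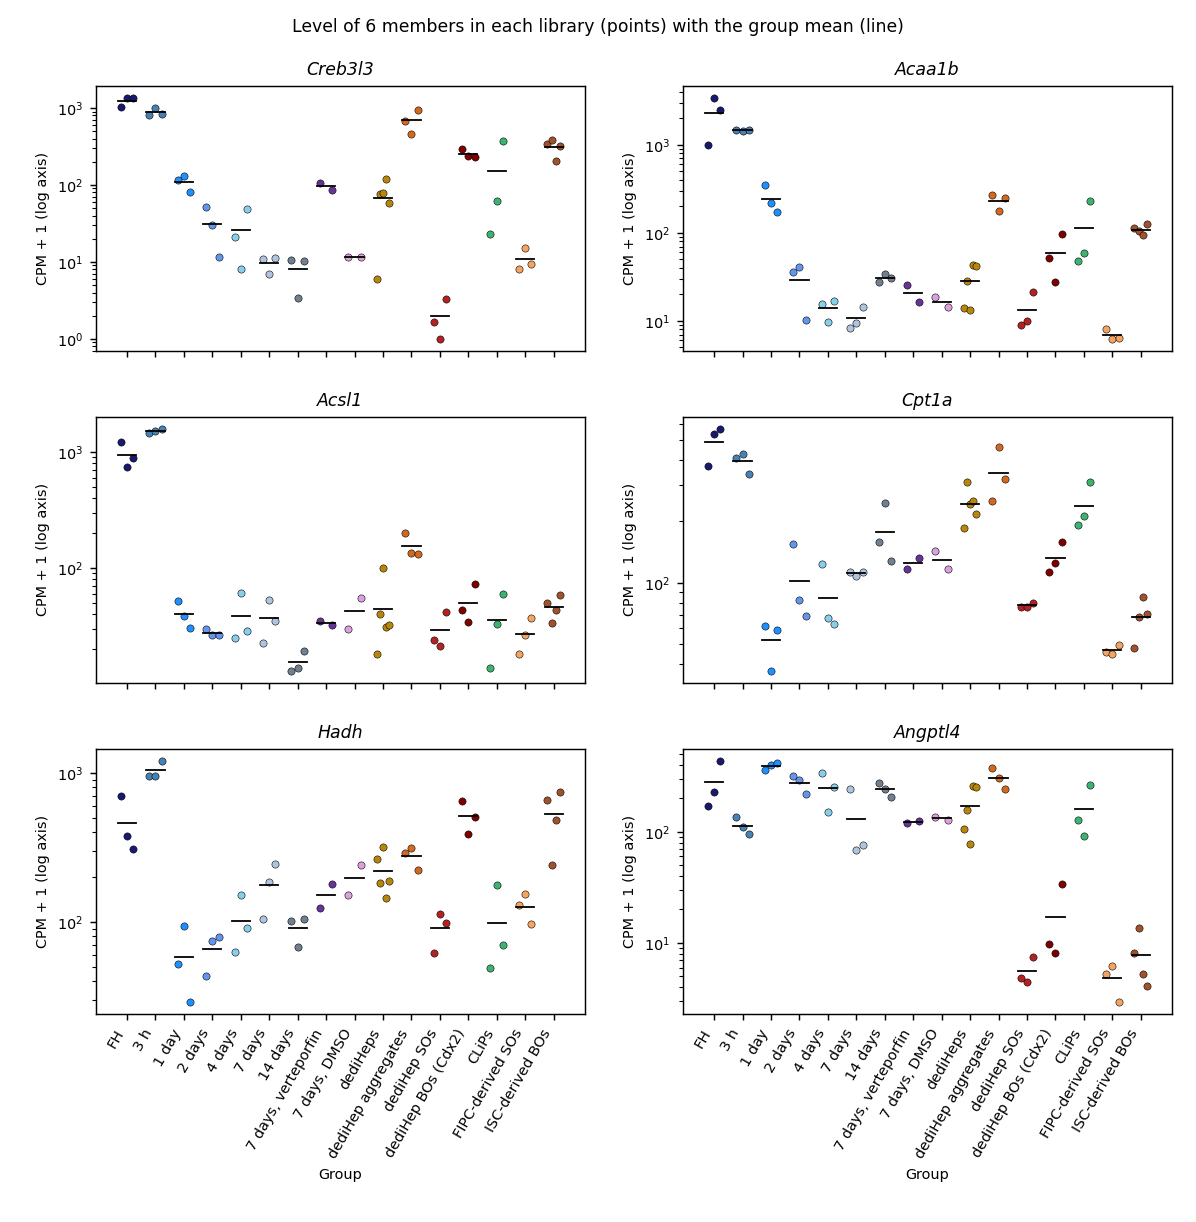
CPM plus 1 on a logarithmic axis for Creb3l3, Acaa1b, Acsl1, Cpt1a, Hadh and Angptl4 in each of the 16 groups. Points are single libraries and lines are group means. Acsl1 and Acaa1b are lower in every library from 1 day on than in any FH library, whereas the Angptl4 libraries at 1 day overlap those of FH.

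Most other genes of the pathway fell too at 1 day. Of 8 genes for ketone bodies, 5 had fallen and 1 had risen, those lower including Bdh1 (-6.23 ± 0.52), which interconverts the ketone bodies. Of 26 other oxidation enzymes 22 had fallen, of 17 genes of peroxisome biogenesis 14, of 18 other PPARA targets 12 with 1 higher, and of 8 PPAR receptors and coactivators 6 with 1 higher. At 14 days the numbers lower and higher were 6 and 1 for ketone bodies, 23 and 1 for other oxidation enzymes, 17 and 0 for peroxisome biogenesis, 12 and 1 for other targets, and 6 and 2 for receptors and coactivators. Fabp1, the liver fatty acid binding protein, had no count at 14 days, at least 3341-fold lower than FH (1601 without 14-day replicate 1).

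At 3 h 5 of 30 members passed. Of these, 1 was lower (all genes 10.9%) and 4 were higher (all genes 7.58%), numbers near those that the background gives for 30 genes. The members' median log2 difference was 0.08 against -0.07. Ehhadh rose from 17.7, 5.47 and 4.13 CPM in FH to 24.2, 254 and 80.1 CPM at 3 h (log2 difference 3.69 ± 0.72, edgeR FDR = 0.00277), and every 3 h library was above every FH library although they differed widely among themselves. Etfdh was at 81.4, 21.9 and 25.8 CPM in FH and 108, 169.9 and 149.8 CPM at 3 h (log2 difference 1.71 ± 0.59, edgeR FDR = 0.0627), and Hadh at 701, 375 and 306 and 957, 953 and 1198 CPM (log2 difference 1.16 ± 0.43, edgeR FDR = 0.0835). In both genes all 3 h libraries lay above all FH libraries. Pdk4 was at 2.36, 5.47 and 0 CPM in FH and 3.82, 32.0 and 11.6 CPM at 3 h, with overlap (log2 difference 2.65 ± 0.93, edgeR FDR = 0.0645). Angptl4 fell to 134, 109 and 95.2 CPM (log2 difference -1.33 ± 0.42, edgeR FDR = 0.0446), below all FH libraries. Fgf21, which was not tested, was at 11.5, 5.52 and 6.97 CPM, and each of these values exceeded the highest FH library.

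These counts depended on single libraries, being 14 without FH replicate 1, 3 without FH replicate 2, 1 without FH replicate 3, 1 without 3 h replicate 2 and 2 without 3 h replicate 3. Without FH replicate 1 there were 5 lower and 9 higher. Ehhadh passed whichever library was left out. With the number that ends the column label as a block, however, 0 members passed (edgeR FDR = 0.222 for Ehhadh). Only 3 h replicate 1 carries a number found in FH, that of FH replicate 3. The other 3 h libraries carry the numbers of the verteporfin and DMSO cultures. Label number and time thus largely change together here and cannot be told apart. The Pdk4 call was lost without FH replicate 3 (edgeR FDR = 0.235) and 3 h replicate 2 (0.348), that of Etfdh without FH replicate 2 (edgeR FDR = 0.225), FH replicate 3 (0.221), 3 h replicate 2 (0.156) and 3 h replicate 3 (0.138), that of Angptl4 without FH replicate 3 (edgeR FDR = 0.267), 3 h replicate 2 (0.124) and 3 h replicate 3 (0.141), and that of Hadh without FH replicate 2 (edgeR FDR = 0.24), FH replicate 3 (0.273), 3 h replicate 1 (0.123), 3 h replicate 2 (0.131) and 3 h replicate 3 (0.211). Of the other lists, ketone body genes had 2 of 8 higher, led by Slc16a6, a monocarboxylate transporter (log2 difference 2.67 ± 0.64, edgeR FDR = 0.01). Among 8 receptors and coactivators 3 were lower, the largest difference being in Ppargc1b (log2 difference -3.48 ± 0.64, edgeR FDR = 0.00135), followed by Ppara itself (log2 difference -2.49 ± 0.49, edgeR FDR = 0.00246).

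Between 1 and 14 days 10 of 30 members fell further (all genes 14%) and 1 rose (all genes 16%), with a median of -0.64 against -0.02. Creb3l3 fell the most (log2 difference -3.87 ± 0.61, edgeR FDR = 3.56e-05), followed by Acaa1b (-2.96 ± 0.47), Pex11a (-2.84 ± 0.62), Acaa2 (-2.39 ± 0.40) and Decr2 (-2.10 ± 0.57). Cpt1a was the member that rose (log2 difference 1.84 ± 0.35, edgeR FDR = 3.47e-04), and its 14-day libraries all lay above its 1-day libraries. The 30 tested members thus did not share a single course, as Cpt1a recovered in part while its partner Cpt2 fell (log2 difference -1.49 ± 0.32, edgeR FDR = 0.00109).

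**Figure D3:**
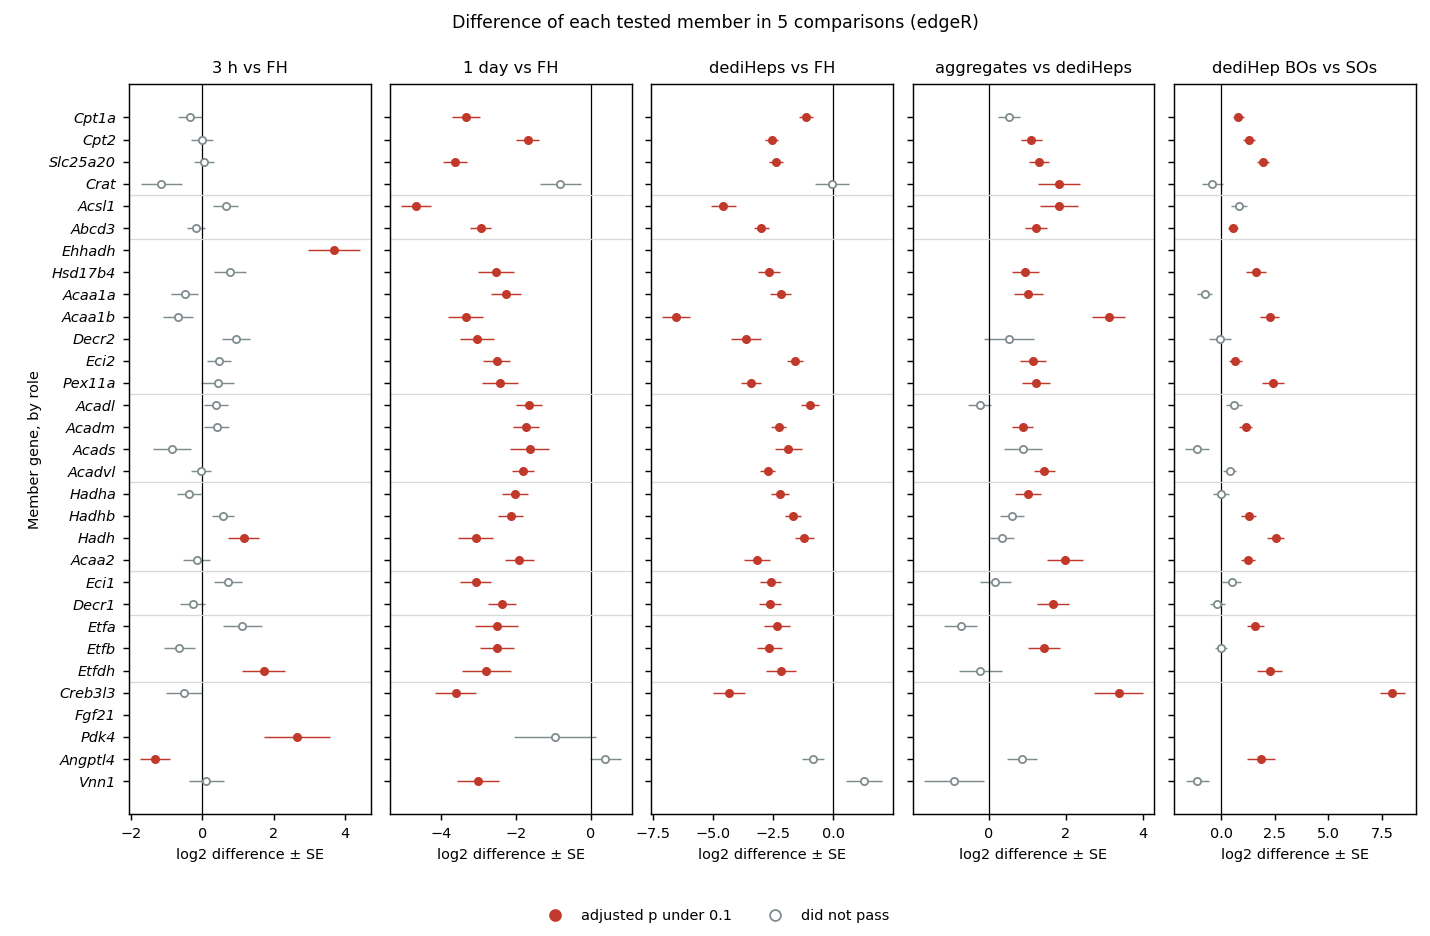
Log2 difference with SE (horizontal bars) of each tested member, grouped by role, for 3 h against FH, 1 day against FH, dediHeps against FH, aggregates against dediHeps, and dediHep BOs against SOs. Red filled points have an edgeR FDR under 0.1 and grey open points do not, and Ehhadh at 1 day, with 3 counts, is left out. Most points lie near 0 at 3 h, left of 0 at 1 day and in dediHeps, and right of 0 in aggregates and dediHep BOs.

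DediHeps, the passaged descendants of these cells, were compared with FH and with 14-day cultures. Relative to FH 25 of 28 members were lower (all genes 22.7%) and 0 higher (all genes 22.4%), with a median of -2.37 against 0.08. The largest difference was in Acaa1b, at 12.9, 27.1, 12.4, 42.6 and 41.2 CPM in the 5 dediHep libraries (log2 difference -6.53 ± 0.57, edgeR FDR = 8.10e-06). It was followed by Acsl1 at 17.3, 39.2, 99.1, 30.4 and 31.3 CPM (log2 difference -4.57 ± 0.52, edgeR FDR = 4.75e-05) and Creb3l3 at 5.03, 76.4, 78.3, 119 and 57.8 CPM (log2 difference -4.33 ± 0.66, edgeR FDR = 3.57e-04). All 5 libraries of each gene lay below the FH range. Decr2 (-3.63 ± 0.62), Pex11a (-3.42 ± 0.40), Acaa2 (-3.15 ± 0.54) and Abcd3 (-2.99 ± 0.31) came next. Ehhadh, not tested here, was 35.3-fold lower (95% counting interval 10.7 to 184), a ratio of 18.4 without FH replicate 1 and 83.1 without dediHep replicate 4. Crat (log2 difference -0.05 ± 0.70, edgeR FDR = 0.965), Angptl4 (log2 difference -0.84 ± 0.45, edgeR FDR = 0.171) and Vnn1 (log2 difference 1.28 ± 0.74, edgeR FDR = 0.203) did not pass. Vnn1 was at 20.1, 11.6, 33.2, 120.0 and 18.9 CPM, and its highest value was in dediHep replicate 4. Cpt1a, at 185, 312, 243, 252 and 215 CPM, fell by less than most members (log2 difference -1.14 ± 0.29, edgeR FDR = 0.00899).

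The other lists had the same direction in dediHeps, with 5 of 8 ketone body genes lower and 1 higher. Oxct1, which breaks ketone bodies down and is normally low in hepatocytes, rose (log2 difference 4.00 ± 0.87, edgeR FDR = 0.00398). Of 25 other oxidation enzymes 19 were lower and 2 higher, of 18 other PPARA targets 13 and 2, and of 17 genes of peroxisome biogenesis 15 and 0. Among 8 receptors and coactivators 4 were lower, with Ppara the largest (log2 difference -4.91 ± 0.61, edgeR FDR = 9.60e-05).

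Relative to 14-day cultures, 10 of 27 members were higher in dediHeps (all genes 9.71%) and 0 lower (all genes 8.06%), with a median of 0.81 against 0.08. Vnn1 differed the most, from 3.57, 0.586 and 1.15 CPM at 14 days (log2 difference 4.28 ± 0.95, edgeR FDR = 0.0212), then Creb3l3 (log2 difference 3.22 ± 0.84, edgeR FDR = 0.0355). None of the 10 calls was kept in every fit that left out a library. The count was 3 without 14-day replicate 1, 0 without 14-day replicate 2, 4 without 14-day replicate 3 and 6 without dediHep replicate 2. Vnn1 was lost without 14-day replicate 2 (edgeR FDR = 0.132), and Creb3l3 without 14-day replicate 1 (edgeR FDR = 0.117), 14-day replicate 2 (0.186) and 14-day replicate 3 (0.105). The dediHep library of lowest likeness to its group, replicate 1, had Creb3l3 at 5.03 CPM, within the 14-day range, and without it 11 members passed.

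In dediHep aggregates, which also had another medium, many members were at higher levels. Of 28 tested, 17 rose relative to monolayer dediHeps (all genes 12.2%) and 0 fell (all genes 12.2%), with a median of 1.02 against -0.07. Creb3l3 reached 668, 459.6 and 945 CPM in the 3 aggregate libraries (log2 difference 3.36 ± 0.64, edgeR FDR = 0.00856) and Acaa1b 271, 176 and 249 CPM (log2 difference 3.10 ± 0.43, edgeR FDR = 0.00174). Acaa2 was at 652, 612 and 607 CPM against 36.9, 147, 139, 187 and 287 CPM in dediHeps (log2 difference 1.98 ± 0.47, edgeR FDR = 0.0211). In these 3 genes every aggregate library exceeded every dediHep library. The next in size were Acsl1 (1.81 ± 0.49), Crat (1.81 ± 0.54), Decr1 (1.65 ± 0.42), Acadvl (1.43 ± 0.27), Etfb (1.43 ± 0.42) and Slc25a20 (1.30 ± 0.26).

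By role, the aggregates were higher for 3 of 4 carnitine shuttle genes, both genes of acyl-CoA synthesis and import, 5 of 6 peroxisomal genes, 2 of 4 acyl-CoA dehydrogenases, 2 of 4 later mitochondrial enzymes, 1 of 2 auxiliary enzymes and 1 of 3 electron carriers. The count was 10 without aggregate replicate 1, 11 without aggregate replicate 2 and 9 without aggregate replicate 3. Acsl1 was lost without aggregate replicate 1 (edgeR FDR = 0.128), Crat without aggregate replicate 1 (edgeR FDR = 0.12), aggregate replicate 2 (0.11) and aggregate replicate 3 (0.131), Decr1 without aggregate replicate 3 (edgeR FDR = 0.129) and Etfb without aggregate replicate 3 (edgeR FDR = 0.179). Aggregates and dediHeps share numbers in the column labels, whose meaning is not given. With these as a block 17 members passed again, Acadm being lost at edgeR FDR = 0.101. Among members not tested, Ehhadh was 6.39-fold higher (95% counting interval 1.60 to 36.7), with a ratio of 15.0 without dediHep replicate 4, and Fgf21 was at 3.23, 0.869 and 54.5 CPM, the last of these from a single library.

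The ketone body list rose with them, with 5 of 8 genes higher, among them Bdh2 (log2 difference 3.88 ± 0.68, edgeR FDR = 0.00533). Of 18 other PPARA targets 13 were higher. Cyp4a14, a fatty acid ω-hydroxylase with no count in dediHeps, was at least 371-fold higher (110.0 without aggregate replicate 1). Of 26 other oxidation enzymes 10 were higher and 1 lower, of 16 genes of peroxisome biogenesis 8 were higher, and of 8 receptors and coactivators 3, led by Ppara (log2 difference 3.75 ± 0.55, edgeR FDR = 0.00222). The hepatocyte markers were also higher in every aggregate library than in any dediHep library, as given above, and their part in these differences was not tested.

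The aggregates remained apart from FH, with 19 of 28 members lower (all genes 19.7%) and 1 higher (all genes 15.9%). The median was -1.19 against -0.04. The count was 13 without aggregate replicate 1 and 13 without aggregate replicate 2. Acaa1b (-3.41 ± 0.47), Decr2 (-3.10 ± 0.42), Etfa (-3.09 ± 0.57), Acsl1 (-2.72 ± 0.38) and Eci1 (-2.44 ± 0.42) had the largest decreases, each kept in every fit that left out a library. The exception was Crat, at 173, 193 and 198 CPM in aggregates and 11.8, 53.3 and 87.8 CPM in FH (log2 difference 1.80 ± 0.55, edgeR FDR = 0.0326), where all aggregate libraries exceeded all FH libraries. Angptl4 was at 372, 301 and 241 CPM and did not pass (log2 difference 0.05 ± 0.40, edgeR FDR = 0.94). Of the other lists, other PPARA targets were split, with 5 of 19 lower and 5 higher than FH, whereas other oxidation enzymes had 16 of 25 lower and 1 higher.

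CLiPs, another progenitor-like state of the hepatocyte, had 19 of 28 members lower than FH (all genes 16.7%) and 0 higher (all genes 20.3%), with a median of -2.27. The all-gene median was 0.18 with TMM and 0.05 with the RLE scaling, and with RLE 20 members passed, Cpt1a being added. The largest decreases were those of Acsl1, at 12.8, 32.4 and 58.3 CPM (log2 difference -4.72 ± 0.68, edgeR FDR = 0.00121), Acaa1b, at 47.3, 57.6 and 232 CPM (log2 difference -4.30 ± 0.83, edgeR FDR = 0.00474), and Decr2 (-3.44 ± 0.54). CLiP replicate 3, the highest of the 3 in hepatocyte markers and in Acaa1b, also had the highest Creb3l3 of the 3, which were at 21.7, 60.1 and 371 CPM. Without it 25 members passed, against 17 without CLiP replicate 2 and 13 without CLiP replicate 1. Creb3l3 passed (log2 difference -2.98 ± 0.94, edgeR FDR = 0.0418) but not without FH replicate 2 (edgeR FDR = 0.109).

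Between CLiPs and dediHeps 0 of 28 members were higher and 0 lower by edgeR's test (all genes 2.84% and 1.85%), 5 members had an unadjusted p under 0.05, and DESeq2 called 2, Acaa1b and Decr1. Acaa1b had a log2 difference of 2.08 ± 0.61 (edgeR FDR = 0.114) and Decr1 of 1.69 ± 0.57 (edgeR FDR = 0.164). Without CLiP replicate 2 the count was 3. The median was 0.0038 against -0.03. Among the other lists, ketone body genes had 1 of 6 lower and other PPARA targets 3 of 12 higher, with 0 in the remaining lists.

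Verteporfin was compared with DMSO in 7-day cultures. Whether the differences come through YAP was not tested. Of 29 members tested 1 rose (all genes 0.317%) and 0 fell (all genes 0.0577%). The member was Creb3l3, at 106 and 85.4 CPM with verteporfin and 10.5 and 10.6 CPM with DMSO (log2 difference 3.20 ± 0.33, edgeR FDR = 0.00713). The call was lost in a single fit of all 49 libraries, where the spread was that of all groups (edgeR FDR = 1). It passed when any of the 4 libraries was left out, but such a fit has 1 library in an arm and takes its spread from the other arm alone. The 7-day cultures of the time course, without solvent, had Creb3l3 at 9.86, 5.98 and 10.1 CPM, close to the DMSO libraries, while the FH libraries were at 1027, 1331 and 1364 CPM.

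The median log2 difference of all tested members was -0.04, against -0.0042 over all genes. Vnn1, at 20.0 and 21.7 CPM against 8.56 and 8.95 CPM, had a log2 difference of 1.27 ± 0.37 (edgeR FDR = 0.321), and Pdk4, at 12.2 and 13.6 against 6.58 and 6.15 CPM, of 1.04 ± 0.43 (edgeR FDR = 0.515). In both genes the libraries of the groups did not overlap, yet neither passed. Libraries of the 2 groups share the numbers that end their column labels, and with these as a block 2 members passed, Creb3l3 and Vnn1. The labels do not say what these numbers stand for. Cpt1a (-0.03 ± 0.26), Acsl1 (-0.32 ± 0.36) and Acaa1b (0.39 ± 0.39) were within 1 log2 unit of 0. Outside the members, of 9 other PPARA targets 3 were higher, namely Cyp4a10 (at least 19.1-fold higher, or 10.3 and 8.79 without DMSO replicate 1 and 2, with no count in DMSO), Acot2 (2.81 ± 0.50) and Acot1 (2.03 ± 0.33). In the fit of all 49 libraries these 3 calls were lost as well (edgeR FDR = 1 for Cyp4a10, 0.363 for Acot2 and 0.769 for Acot1). None of 22 other oxidation enzymes passed. The hepatocyte markers summed to 3308 to 3907 CPM with verteporfin and 3919 to 3928 CPM with DMSO. The endothelial markers were higher in both verteporfin libraries, at 16.7 to 20.0 CPM against 5.03 to 6.58 CPM, and the cholangiocyte markers were at 373 to 461 and 360.3 to 363 CPM. Their part in the calls was not tested.

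**Figure D4:**
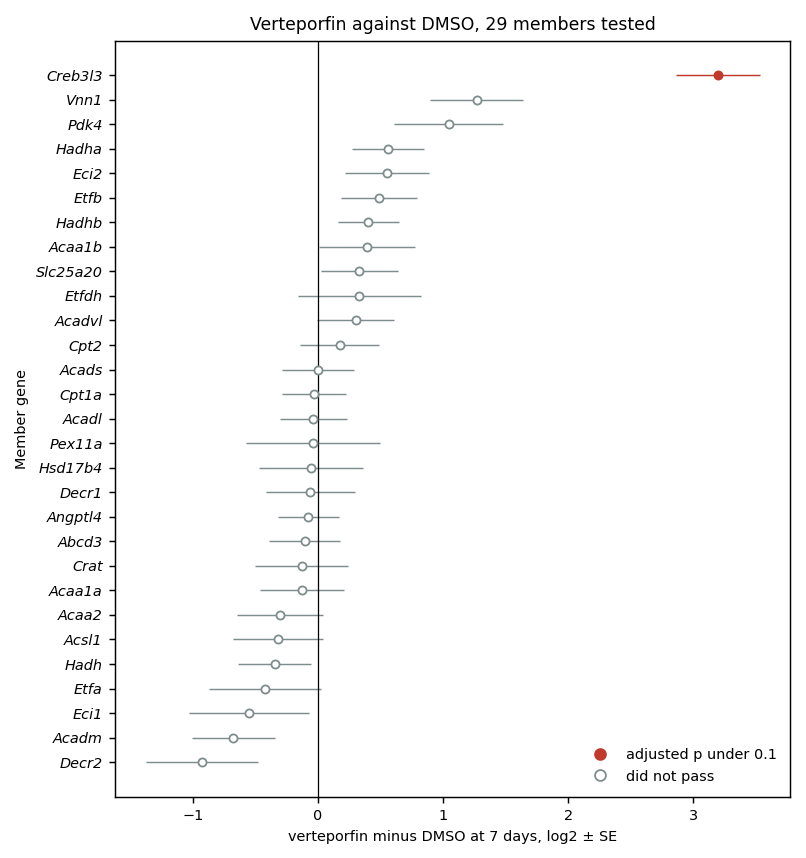
Log2 difference with SE of the 29 tested members between 7-day cultures with verteporfin and with DMSO (n = 2 each), sorted by size, on the horizontal axis. Creb3l3, the single red point with an edgeR FDR under 0.1, lies at 3.20, and the other members lie around 0.

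In dediHep SOs 6 of 28 members were lower than in dediHeps (all genes 8.21%) and 0 higher (all genes 7.93%), and without dediHep replicate 1 the members that passed numbered 9. The median was -0.71 against -0.05. Creb3l3 was at 0.643, 0 and 2.31 CPM in the SOs (log2 difference -6.04 ± 1.09, edgeR FDR = 0.00469) and Angptl4 at 3.86, 3.47 and 6.48 CPM (log2 difference -5.20 ± 0.56, edgeR FDR = 2.31e-04), each below all dediHep libraries. The SO libraries held 2, 0 and 5 Creb3l3 counts, so the size of that difference is uncertain. Cpt1a was at 75.5, 75.4 and 79.1 CPM (log2 difference -1.66 ± 0.27, edgeR FDR = 0.00248) and Slc25a20 at 16.7, 22.8 and 16.2 CPM (log2 difference -1.50 ± 0.32, edgeR FDR = 0.0129). Hsd17b4 (log2 difference -1.59 ± 0.49, edgeR FDR = 0.0618) was lost without dediHep replicate 5 (edgeR FDR = 0.116), dediHep SO replicate 1 (0.247) and dediHep SO replicate 2 (0.254), and Hadh (log2 difference -1.29 ± 0.36, edgeR FDR = 0.0409) without dediHep SO replicate 1 (edgeR FDR = 0.192). Pdk4 had no count in the SOs, at least 7.66-fold lower (4.39 without dediHep SO replicate 1). Fgf21 had none either, at least 6.63-fold lower, a bound of 2.64 without dediHep replicate 4, which held most of the dediHep counts, and of 3.80 without dediHep SO replicate 1. DediHep SOs and dediHeps share numbers in the column labels, and with these as a block 4 members passed, Hsd17b4 and Slc25a20 being lost (edgeR FDR = 0.134 and 0.141). Of the other lists, 7 of 11 other PPARA targets and 5 of 23 other oxidation enzymes were lower.

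DediHep BOs had 16 of 28 members higher than dediHep SOs and 0 lower, where 19.1% of all genes were higher and 20.5% lower. The median was 0.81 against 0.02. Creb3l3 went from 0.643, 0 and 2.31 CPM to 296, 239 and 228 CPM (log2 difference 7.99 ± 0.57, edgeR FDR = 3.89e-07), and Hadh from 60.7, 113 and 96.7 CPM to 647, 388 and 503 CPM (log2 difference 2.54 ± 0.39, edgeR FDR = 2.34e-04). The size of the Creb3l3 difference is uncertain, since the SO libraries held 2, 0 and 5 of its counts. Pex11a was at 17.5, 15.9 and 26.7 CPM (log2 difference 2.43 ± 0.52, edgeR FDR = 0.003) and Etfdh at 18.0, 17.6 and 14.2 CPM (log2 difference 2.26 ± 0.58, edgeR FDR = 0.0106). In these 4 genes every BO library exceeded every SO library. The other large differences were those of Acaa1b (2.26 ± 0.45), Slc25a20 (1.94 ± 0.29), Hsd17b4 (1.63 ± 0.46), Etfa (1.59 ± 0.40), Cpt2 (1.31 ± 0.29) and Hadhb (1.28 ± 0.35). Angptl4 passed (log2 difference 1.85 ± 0.64, edgeR FDR = 0.043) but not without dediHep BO replicate 3 (edgeR FDR = 0.323), dediHep SO replicate 1 (0.143) and dediHep SO replicate 2 (0.132). Ehhadh had no count in the SOs and was at least 4.70-fold higher in the BOs (2.69 without dediHep SO replicate 1). In the BOs 5 of 8 ketone body genes and 7 of 12 other PPARA targets were higher. Fabp1, with no count in the SOs, was at least 1400.0-fold higher (802 without dediHep SO replicate 1). Stellate cell or fibroblast markers summed to 0 to 0.643 CPM in the SOs and 4.18 to 295 CPM in the BOs, and cholangiocyte markers to 2494 to 3206 and 1119 to 1464 CPM. The part of either list in these differences was not tested. Of the other oxidation enzymes 10 of 26 were higher and 3 lower.

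The organoids of intestinal origin gave the same kind of contrast, with adult ISC-derived BOs against fetal FIPC-derived SOs. There 11 of 28 members were higher in the BOs (all genes 9.69%) and 1 lower (all genes 8.19%), with a median of 0.78 against -0.03. Creb3l3 was at 7.01, 14.4 and 8.35 CPM in the SOs and 342, 388, 201 and 316 CPM in the BOs (log2 difference 4.94 ± 0.44, edgeR FDR = 5.08e-06). Acaa1b was at 7.01, 5.26 and 5.46 CPM and 112, 104, 92.8 and 124 CPM (log2 difference 4.17 ± 0.47, edgeR FDR = 3.42e-05). Neither gene overlapped between the groups. Crat (log2 difference 2.19 ± 0.47, edgeR FDR = 0.00521) and Hadh (log2 difference 2.06 ± 0.36, edgeR FDR = 0.00128) were the next higher members that were kept whichever library was left out. Vnn1 was the single member lower in the BOs, at 2.16, 2.51, 0.847 and 0.437 against 7.40, 7.01 and 8.03 CPM (log2 difference -2.33 ± 0.56, edgeR FDR = 0.011). Its counts in the BO libraries were 4, 6, 2 and 1, near the floor. Of the other lists, 14 of 26 other oxidation enzymes and 8 of 12 other PPARA targets were higher, and ketone body genes had 1 higher and 1 lower of 8.

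The question of origin was put within each form. The FIPC-derived SOs were fetal, and the dediHep BOs carried Cdx2 while the ISC-derived BOs did not, so origin is not the only difference. Between dediHep SOs and FIPC-derived SOs, 2 of 28 members were lower in the dediHep SOs (all genes 14.2%) and 3 higher (all genes 15.6%), with a median of 0.05 against -0.04. Creb3l3 was lower (log2 difference -3.32 ± 0.59, edgeR FDR = 9.77e-04) and passed whichever library was left out. With 2, 0 and 5 counts in the dediHep SOs, the size of this difference is uncertain. Crat (log2 difference 1.29 ± 0.49, edgeR FDR = 0.0701) was lost without FIPC-derived SO replicate 2 (edgeR FDR = 0.249), FIPC-derived SO replicate 3 (0.2) and dediHep SO replicate 1 (0.247), and the calls of Acaa1a (1.01 ± 0.37), Hadhb (-0.96 ± 0.35) and Cpt1a (0.71 ± 0.26) were each lost without dediHep SO replicate 1 (edgeR FDR = 0.255, 0.232 and 0.117) and without several others. The count was 1 without dediHep SO replicate 1, 2 without dediHep SO replicate 2, 1 without FIPC-derived SO replicate 2 and 1 without FIPC-derived SO replicate 3. Ketone body genes were lower in 4 of 8, with the largest difference in Bdh1 (-6.64 ± 0.46).

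Between dediHep BOs and ISC-derived BOs, 1 of 28 members was lower in the dediHep BOs (all genes 4%) and 1 was higher (all genes 4.82%), numbers near those that the background gives for 28 genes, with a median of -0.05 against 0. Cpt1a was at 113, 125 and 157 CPM in dediHep BOs and 47.1, 66.9, 83.9 and 69.5 CPM in ISC-derived BOs, without overlap (log2 difference 0.98 ± 0.23, edgeR FDR = 0.024), and passed whichever library was left out. Decr1 was at 46.6, 53.4 and 52.6 and 102, 150.1, 94.9 and 85.7 CPM (log2 difference -1.08 ± 0.34, edgeR FDR = 0.0826), also without overlap, but its call was lost without ISC-derived BO replicate 1 (edgeR FDR = 0.136), ISC-derived BO replicate 2 (0.21), ISC-derived BO replicate 3 (0.115), dediHep BO replicate 1 (0.26), dediHep BO replicate 2 (0.22), dediHep BO replicate 3 (0.153) and dediHep SO replicate 2 (0.103). The fit takes its spread from all 4 kinds of organoid, so libraries of the SOs count too, and the number of members was 1 without dediHep SO replicate 2, 4 without dediHep SO replicate 3, 1 without dediHep BO replicate 1, 1 without dediHep BO replicate 2, 1 without ISC-derived BO replicate 1, 1 without ISC-derived BO replicate 2 and 4 without ISC-derived BO replicate 4. Creb3l3, with a log2 difference of -0.28 ± 0.35 (edgeR FDR = 0.663), and Hadh, with -0.03 ± 0.34 (edgeR FDR = 0.967), did not pass. Of the ketone body genes, Bdh1 was lower in dediHep BOs (log2 difference -2.83 ± 0.32, edgeR FDR = 1.56e-04).

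Whether the difference between BOs and SOs itself depended on origin was tested as an interaction. It was larger in the dediHep organoids for 2 of 28 members (all genes 9.24%) and smaller or opposite for 3 (all genes 9.09%), shares close to those of all genes, with a median of 0.21 against 0.06. Creb3l3 was near the floor in dediHep SOs, with 2, 0 and 5 counts, so the size of its interaction is uncertain. It had the larger increase in dediHep organoids (log2 difference 3.04 ± 0.69, edgeR FDR = 0.0133), kept whichever library was left out. Crat had an interaction of -2.60 ± 0.66 (edgeR FDR = 0.024), from -0.41 ± 0.47 in dediHep organoids, which did not pass, and 2.19 ± 0.47 in intestinal organoids, and it was kept in the same fits. Acaa1b (log2 difference -1.92 ± 0.62, edgeR FDR = 0.0625) was lost without FIPC-derived SO replicate 2 (edgeR FDR = 0.147), FIPC-derived SO replicate 3 (0.132), dediHep BO replicate 1 (0.12) and dediHep BO replicate 2 (0.116). Acaa1a (log2 difference -1.64 ± 0.51, edgeR FDR = 0.0535) was lost without FIPC-derived SO replicate 2 (edgeR FDR = 0.141), FIPC-derived SO replicate 3 (0.116), dediHep BO replicate 1 (0.107), dediHep BO replicate 2 (0.121), dediHep SO replicate 1 (0.158) and dediHep SO replicate 2 (0.111). Slc25a20 (log2 difference 1.21 ± 0.38, edgeR FDR = 0.0575) was lost without FIPC-derived SO replicate 3 (edgeR FDR = 0.138), ISC-derived BO replicate 1 (0.103), dediHep BO replicate 3 (0.115) and dediHep SO replicate 1 (0.156). The count was 3 without dediHep SO replicate 1, 10 without dediHep SO replicate 3, 3 without dediHep BO replicate 1, 3 without dediHep BO replicate 2, 8 without FIPC-derived SO replicate 1, 3 without FIPC-derived SO replicate 2, 2 without FIPC-derived SO replicate 3 and 8 without ISC-derived BO replicate 4. Among ketone body genes 4 of 8 had the larger increase in dediHep organoids.

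**Figure D5:**
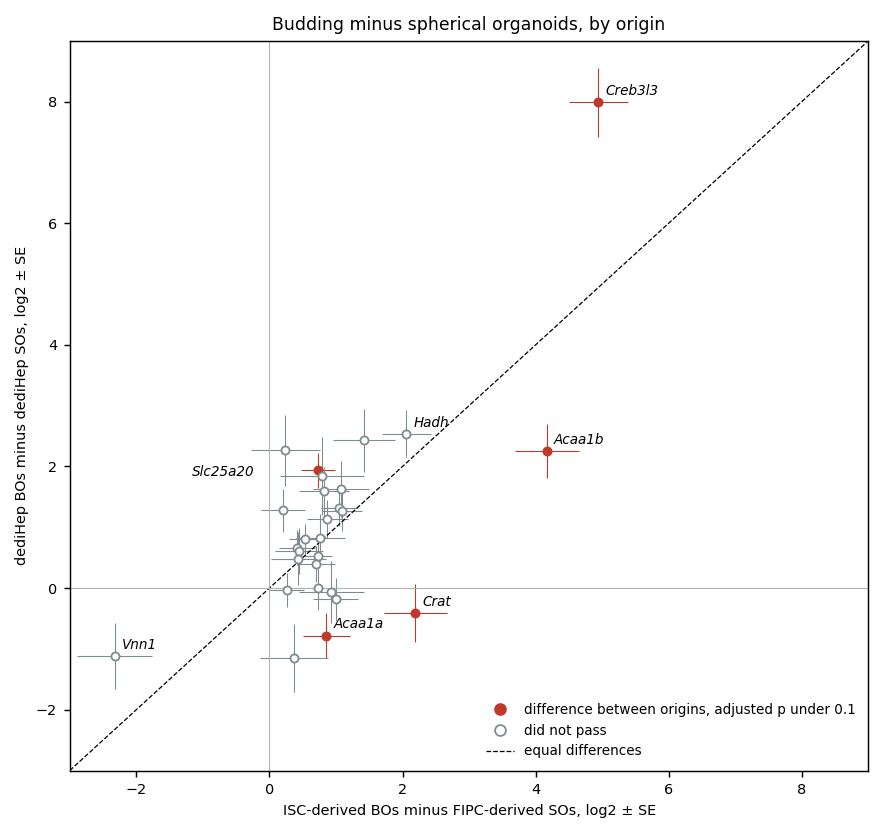
Log2 difference between BOs and SOs of each tested member in intestinal organoids (ISC-derived minus FIPC-derived, horizontal axis) and in dediHep organoids (vertical axis), with SE as bars. The dashed line marks equal differences, and the 5 red points (Creb3l3, Acaa1b, Crat, Acaa1a and Slc25a20) are those whose interaction passed at an edgeR FDR under 0.1.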

How the data were processed

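RNA of 49 libraries in 16 groups was sequenced from the 3′ ends of transcripts by CEL-Seq2. The deposited values are raw counts of unique molecular identifiers per Ensembl gene, which the authors made with the celseq2 pipeline and did not normalize. The submitters' processing notes name bcl2fastq 2.20, Bowtie2 2.3.1, HTSeq 0.6.0 and GRCm 38, and the annotation is not given in the sources used here. Columns were matched to groups through the sample labels, and 0 columns were left out. Of 46078 identifiers, 45143 were matched to a symbol in GENCODE M21, and 14097 had no count. With UMIs of 6 bases (4096 sequences) a gene cannot exceed 4096 counts in a library, and the highest count of a member was 2514. Totals ran from 861047 to 3872936 counts (median 1976760), and bounds and intervals cover counting error only.

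Differences were tested with the quasi-likelihood test of edgeR 4.0.16 (R 4.3.3) with TMM normalization, filterByExpr and Benjamini-Hochberg adjustment over all genes tested. The 7 groups of the time course and the 4 groups of organoids were each fitted together, and other comparisons on their 2 groups. A member passed at an FDR under 0.1. The study's stricter limits, which also ask for an absolute log2 difference above 2, were an alternative, beside RLE, DESeq2 1.42.0, other filters, 1 fit of all libraries, a correction for UMIs drawn more than once, a replicate block and leaving out each library. The script was tested on simulated data. Of genes given a log2 difference of 1, 4.5% passed for dediHeps against FH and 32.3% for verteporfin against DMSO. With a difference of 2 the shares were 78.7% and 95.1%, and with 3 they were 98.6% and 100%. Genes of low expected count were not among those given a difference. A member that did not pass may thus still differ by about 1 log2 unit, and in dediHeps against FH sometimes by 2. A group with 0 counts was given a floor of 3 counts, and with 1 to 3 counts the ratio has an exact 95% interval. In a comparison, members past the test were named from the largest log2 difference down, at most 12, with any that moved against most members, and at most 4 genes of each other list. Genes outside the lists were named only as markers. The other lists held 90 genes, of which 88 were found. Some genes of these lists are counted with their list and not reported by name here. The members and lists were chosen with earlier results of these data known.

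The column labels end in numbers whose meaning is not given. Aggregates and dediHeps with the same number deviated together (correlation of deviations 0.178 to 0.357, all other pairs at most 0.122). The main test did not pair them, and they were taken as pairs only in the alternative with a block. DediHep SOs and dediHeps share such numbers too, but their deviations did not correlate (-0.494 to 0.0436). The groups of the time course share them as well, except that of the 3 h libraries only replicate 1 carries a number of FH. The verteporfin and DMSO cultures share theirs, which 3 h replicates 2 and 3 also carry. The value with the block is given beside a result that it changes. Elsewhere the libraries shared only a replicate number. The ratios and bounds without single libraries were added after seeing the data.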

Additional observations from a re-analysis of the deposited data

Results flagged for a closer look

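Among 61 tests for a single library far from the rest of its group, each of 1 member in 1 group, 6 stood out, where chance gives about 1 in 20 tests. Only dediHeps and ISC-derived BOs had the 4 or more libraries that the test needs, so the other groups were not tested. In dediHeps Acsl1 was at 99.1 CPM in replicate 3 against at most 39.2 CPM in the others, and Decr2 at 16.2 CPM in replicate 1 against at most 5.44 CPM. Replicate 4 had the lowest Hadhb, at 105.8 CPM with the next at 203 CPM, and the highest Fgf21, at 8.68 CPM with the next at 2.12 CPM, and Vnn1, at 120.0 CPM with the next at 33.2 CPM. Fgf21 had a count in ISC-derived BO replicate 1 (0.541 CPM) and none in the other 3, a level below the floor of 3 counts.

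The interaction test of edgeR, of whether the difference between BOs and SOs depended on origin, was passed by 5 of 28 members, 2 higher (all genes 9.24%) and 3 lower (all genes 9.09%), a share near that of all genes. The log2 interaction (dediHep minus intestinal) was 3.04 ± 0.69 for Creb3l3 (edgeR FDR = 0.0133) and 1.21 ± 0.38 for Slc25a20 (edgeR FDR = 0.0575). Creb3l3 had 2, 0 and 5 counts in the dediHep SOs, so the size of its value is uncertain. The interaction was -2.60 ± 0.66 for Crat (edgeR FDR = 0.024), -1.92 ± 0.62 for Acaa1b (edgeR FDR = 0.0625) and -1.64 ± 0.51 for Acaa1a (edgeR FDR = 0.0535). The intestinal SOs were fetal and the intestinal BOs adult, and the dediHep BOs carried Cdx2 while the dediHep SOs did not. The medium differed between SOs and BOs as well. Origin, age, transgene and the response to the medium therefore cannot be told apart in this test.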

How the results depend on the processing

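The number of members that passed stayed within 1.5 times its value, under every alternative but leaving out libraries, for FH against 1, 2, 4, 7 and 14 days, dediHeps and CLiPs. Under the study's thresholds fewer passed at 3 h (2), from 1 to 14 days (5), in dediHeps against 14 days (2), in aggregates against dediHeps (2) and FH (7), in dediHep SOs against dediHeps (2) and FIPC-derived SOs (1), in dediHep BOs against SOs (5) and ISC-derived BOs (0), in ISC-derived BOs against FIPC-derived SOs (5) and in the interaction (2). With an FDR under 0.05 the counts were 2 at 3 h, 6 in dediHeps against 14 days, 1 in dediHep SOs against FIPC-derived SOs, 1 in dediHep BOs against ISC-derived BOs and 2 in the interaction. In the fit of all 49 libraries they were 0 with verteporfin, 4 in CLiPs against dediHeps, 13 in dediHep SOs against dediHeps, 1 in dediHep BOs against ISC-derived BOs and 3 in the interaction. CLiPs against dediHeps gave 2 members with DESeq2, 2 without a filter and 1 with 0.5 CPM, and dediHep BOs against ISC-derived BOs 5 without a filter. The cause of these differences was not tested. A replicate block (correlations of same-numbered libraries -0.577 to 0.627 in the time course) gave 0 members at 3 h, 2 with verteporfin (Creb3l3 and Vnn1), 4 in dediHep BOs against ISC-derived BOs and 8 in the interaction. With the pairs of shared label numbers it gave 17 in aggregates against dediHeps. In dediHeps against 14 days the block gave 11, of which 2 were lower. Other counts under the block stayed within 1.5 times.

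Leaving out 1 library at a time gave 1 to 14 members at 3 h, 26 to 28 at 1 day, 26 to 27 at 2, 4 and 14 days, 26 to 29 at 7 days and 9 to 11 from 1 to 14 days. The ranges were 22 to 25 for dediHeps against FH, 0 to 13 against 14 days, 9 to 17 for aggregates against dediHeps and 13 to 22 against FH, 13 to 25 for CLiPs against FH and 0 to 3 against dediHeps, and 1 in each case with verteporfin. They were 4 to 9 for dediHep SOs against dediHeps, 12 to 20 for dediHep BOs against SOs, 8 to 16 for ISC-derived BOs against FIPC-derived SOs, 1 to 7 for dediHep SOs against FIPC-derived SOs, 1 to 4 for dediHep BOs against ISC-derived BOs and 2 to 10 for the interaction. Of 6444 alternative values for the 290 cases in which a member passed, 6140 kept direction and threshold, 304 lost the threshold and 0 reversed. For the named genes of other lists 6525 of 6920 did, and 0 reversed. At 3 counts or fewer over a group only ratios could be given.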
